A study of Mus musculus with 12 samples.

Results

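The genes described here are 36 genes of the endoplasmic reticulum (ER) that sense unfolded protein or carry out the folding, degradation, import and export of ER proteins. They were taken by name from the deposited table, and all 36 were among its 23446 genes with at least 10 reads over the 12 libraries. Of these members, 35 had enough reads to be tested among 12230 genes. The exception was Derl3, with 0 to 4 reads in each library.

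The RNA came from C2C12, a mouse myoblast line that multiplies in growth medium (GM) and turns into contractile muscle cells in differentiation medium (DM). Cells were kept for 12 h with acetoacetate (AA), a ketone body, in DM (DM-AA) or in GM (GM-AA), or with PBS as the control in DM (DM-PBS) or in GM (GM-PBS), with 3 libraries in each group. The labels name no genetic change in any group, no dose or salt of AA and no composition of the media. Whether the libraries of a group were grown in separate dishes is not stated, so a p-value covers the spread between these samples only, which may be technical.

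A library held 7959519 to 9893564 reads assigned to genes. All 6 myoblast markers were present, with a summed level between 1986 and 2636 CPM (counts scaled to library size and composition). Des made up most of that sum, with group means of 1451 to 1789 CPM, and Pax7 least, with 22.6 to 39.4 CPM. The 7 markers of differentiating muscle summed to 218 to 279.9 CPM in DM-AA, 107 to 118 CPM in DM-PBS, 88.7 to 116 CPM in GM-AA and 65.8 to 77.0 CPM in GM-PBS. Their sum thus moved with both medium and AA, but single markers did not all rise in DM. With PBS, the means of Myog, Actc1, Ckm and Myl1 were higher in DM than in GM, and those of Acta1, Myh3 and Tnnt3 were lower. Myog averaged 70.2 CPM in DM-PBS and 11.8 CPM in GM-PBS, and Acta1 averaged 16.9 and 42.8 CPM. The part of these markers in the results that follow was not tested. Markers of other cell types were near 0: adipocyte markers summed to at most 1.47 CPM, immune markers to at most 4.83 CPM and endothelial markers to at most 1.86 CPM. Of 4 epithelial markers, Krt19 made up nearly the whole sum of 27.4 to 87.5 CPM. Emr1 (macrophages), Tie1 (endothelium) and Plin1 (adipocytes) had 0 reads in every library. In RNA from whole dishes, fewer cells of a type and less RNA per cell cannot be told apart.

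Proteins bound for membranes or secretion enter the ER through the Sec61 channel, are folded there by chaperones led by BiP (Hspa5), are joined by disulfide bonds, and leave in vesicles with a COPII coat. Those that fail to fold are pulled back out and degraded. When unfolded protein builds up, the membrane sensors IRE1 (Ern1), PERK (Eif2ak3) and ATF6 start the unfolded protein response, in which IRE1 splices Xbp1 mRNA so that it encodes an active transcription factor. In muscle the ER has a specialised part, the sarcoplasmic reticulum, whose calcium store drives contraction. Counts per gene do not separate spliced from unspliced Xbp1, nor active from inactive sensors.

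The element through which ATF6 and XBP1 act at many of these promoters was looked for first. The ER stress element consists of CCAAT, which the factor NF-Y binds, 9 further bases and CCACG, which ATF6 binds. RefSeq promoter windows (GRCm38.p6, 250 bases before to 50 after the start site) were matched for 31 members, in 35 windows, and searched on both strands. No window was found for Hyou1, Manf, Atf6, Sec61a1 and Derl1. The exact element was in windows of 10 of the 31 members (32.3%), against 15 of 9582 tested genes with a window (0.157%) and 39 of all 32851 windows (0.119%). Members were not taken out of those tested genes and windows, so these shares include members with the element. The element is shown for the 10 members, read on its own strand with CCAAT and CCACG in capitals. Several of them are textbook cases of the element, so the count describes the list and is no test of it.
Calr: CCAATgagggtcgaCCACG
Canx: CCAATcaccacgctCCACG
Creld2: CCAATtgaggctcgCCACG
Derl3: CCAATggggaagtcCCACG
Dnajc3: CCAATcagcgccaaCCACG
Ero1lb: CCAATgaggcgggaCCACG
Hsp90b1: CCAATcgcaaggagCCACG
Hsp90b1: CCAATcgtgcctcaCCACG
Hspa5: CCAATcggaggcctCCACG
Pdia6: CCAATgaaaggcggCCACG
Syvn1: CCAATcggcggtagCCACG

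The windows of Herpud1 and Dnajb11 held ER stress element II, in which ATTGG, 1 base and CCACG follow each other, found in 12 of 32851 windows (0.0365%). The window of Sec24d held TGACGTGG, an ATF6 and XBP1 site whose other strand also contains CCACG, found in 222 windows (0.676%). CCACG alone was in 26 of the 31 members (83.9%), against 52.9% of tested genes. Whole windows are printed for Hspa5, Creld2 and Herpud1, since these 3 genes moved in different ways between the groups, with the bases of the elements in capitals and each read 5′ to 3′ along its gene.
Hspa5, chr2:34771840-34772139, + strand: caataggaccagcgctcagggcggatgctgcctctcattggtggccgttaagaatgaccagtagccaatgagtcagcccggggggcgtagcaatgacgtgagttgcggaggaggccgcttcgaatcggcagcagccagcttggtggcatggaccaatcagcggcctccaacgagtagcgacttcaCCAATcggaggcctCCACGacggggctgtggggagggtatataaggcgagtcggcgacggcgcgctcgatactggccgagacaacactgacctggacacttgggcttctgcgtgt
Creld2, chr15:88819396-88819695, + strand: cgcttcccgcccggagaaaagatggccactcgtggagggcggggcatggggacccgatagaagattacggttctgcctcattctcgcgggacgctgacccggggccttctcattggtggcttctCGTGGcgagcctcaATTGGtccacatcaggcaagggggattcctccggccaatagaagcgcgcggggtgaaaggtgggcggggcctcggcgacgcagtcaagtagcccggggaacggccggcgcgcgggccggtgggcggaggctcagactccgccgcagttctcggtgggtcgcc
Herpud1, chr8:94386179-94386478, + strand: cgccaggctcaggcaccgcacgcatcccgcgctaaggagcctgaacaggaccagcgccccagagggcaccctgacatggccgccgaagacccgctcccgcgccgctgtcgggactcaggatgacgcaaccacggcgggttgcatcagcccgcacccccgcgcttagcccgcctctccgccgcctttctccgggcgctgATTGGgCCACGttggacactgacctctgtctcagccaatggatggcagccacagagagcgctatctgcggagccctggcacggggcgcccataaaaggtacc
The Hspa5 element lay 47 to 65 bases before the start site on the strand of the gene, that of Creld2 lay 108 to 126 bases before it on the opposite strand, and that of Herpud1 lay 42 to 52 bases before it.

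**Figure D1:**
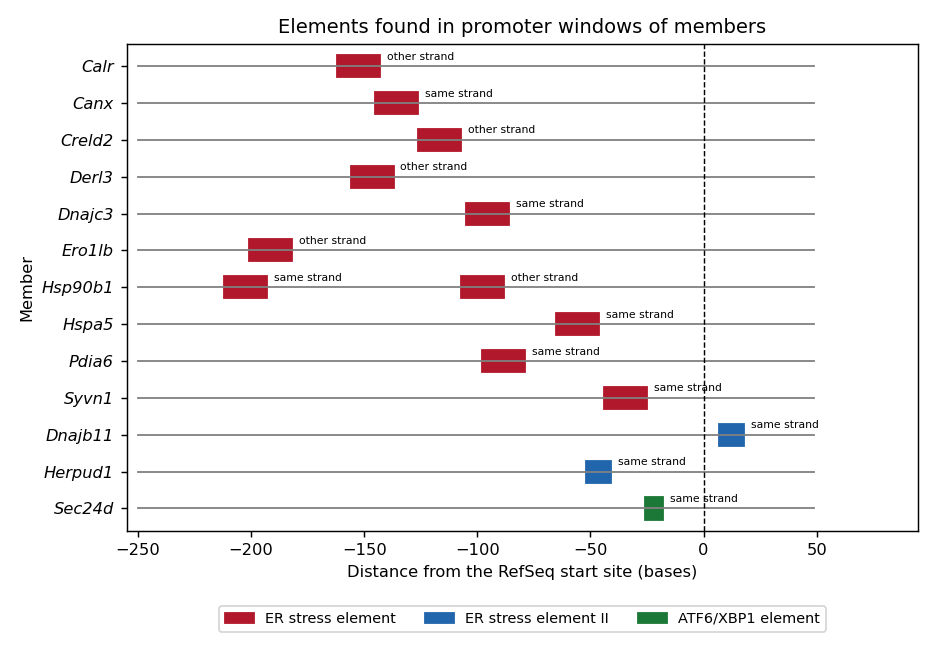
Positions of the elements in the promoter windows of 13 members, in bases from the RefSeq start site (0, dashed), with grey lines for the window. Red marks the ER stress element, blue its form II and green the ATF6 and XBP1 site. Same or other strand is relative to the gene. Only exact matches are marked, and Hsp90b1 alone among these members has 2 of them.

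Read per length, the members spanned a wide range. In GM-PBS the authors' RPKM (reads per kilobase of gene length, scaled to sequencing depth) was 433 ± 13.3 for P4hb, 418 ± 39.5 for Calr, 229 ± 18.4 for Hsp90b1 and 223 ± 10.6 for Hspa5 (mean ± SD, n = 3), so that P4hb and Calr, and likewise Hsp90b1 and Hspa5, lay within their spread of each other. The sensors were far lower, with 16.1 ± 0.515 RPKM for Atf6, 7.02 ± 0.718 RPKM for Ern1 and 4.87 ± 0.474 RPKM for Eif2ak3. The lowest tested member was the oxidase Ero1lb at 1.14 ± 0.148 RPKM. Together the 36 members took 0.897% to 0.928% of all reads in DM-AA, 0.803% to 0.847% in DM-PBS, 1.03% to 1.07% in GM-AA and 0.969% to 1.03% in GM-PBS, and the libraries of the 2 media did not overlap.

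Medium moved more members than AA did. With AA, 17 of the 35 tested members were lower in DM than in GM and 6 were higher (edgeR quasi-likelihood test, adjusted p under 0.05 by Benjamini and Hochberg's method with all tested genes in the family, here called past the test). Of all genes, 52.2% were called, 26.3% lower and 25.9% higher. The members had a median log2 fold change of -0.12, and all tested genes one of 0.0058. With PBS, 19 members were lower in DM and 3 higher, where 54.4% of all genes were called, 27.4% lower and 27.0% higher. The median was then -0.15 for the members and 0.0071 for all genes. With PBS the members higher in DM numbered 5 when GM-PBS 1 was left out or when the authors' RPKM divisor served as library size.

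AA against PBS called 9 members in each medium. In DM 9 rose and 0 fell (0 in DESeq2 as well, and 1, Pdia6, at an unadjusted p under 0.05 in edgeR), where 26.4% of all genes were called, 12.6% higher and 13.8% lower. In GM 6 rose and 3 fell, where 20.7% of all genes were called, 9.76% higher and 11.0% lower. The 9 called members are 25.7% of those tested, close to the shares over all genes. The median log2 fold change of the members was 0.074 in DM and 0.045 in GM, against 0.0021 and -0.0034 for all genes, and the largest change of a member was the fall of Creld2 in GM. Without GM-AA 3 the members that rose in GM numbered 3, and without GM-PBS 1 they numbered 2. With each library's trend over GC content and gene length removed, the members that fell in GM numbered 6. Setting the AA effect in DM against that in GM called 2 members, both higher, or 5.71% of them, against 5.24% of all genes (2.58% higher and 2.67% lower).

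**Figure D2:**
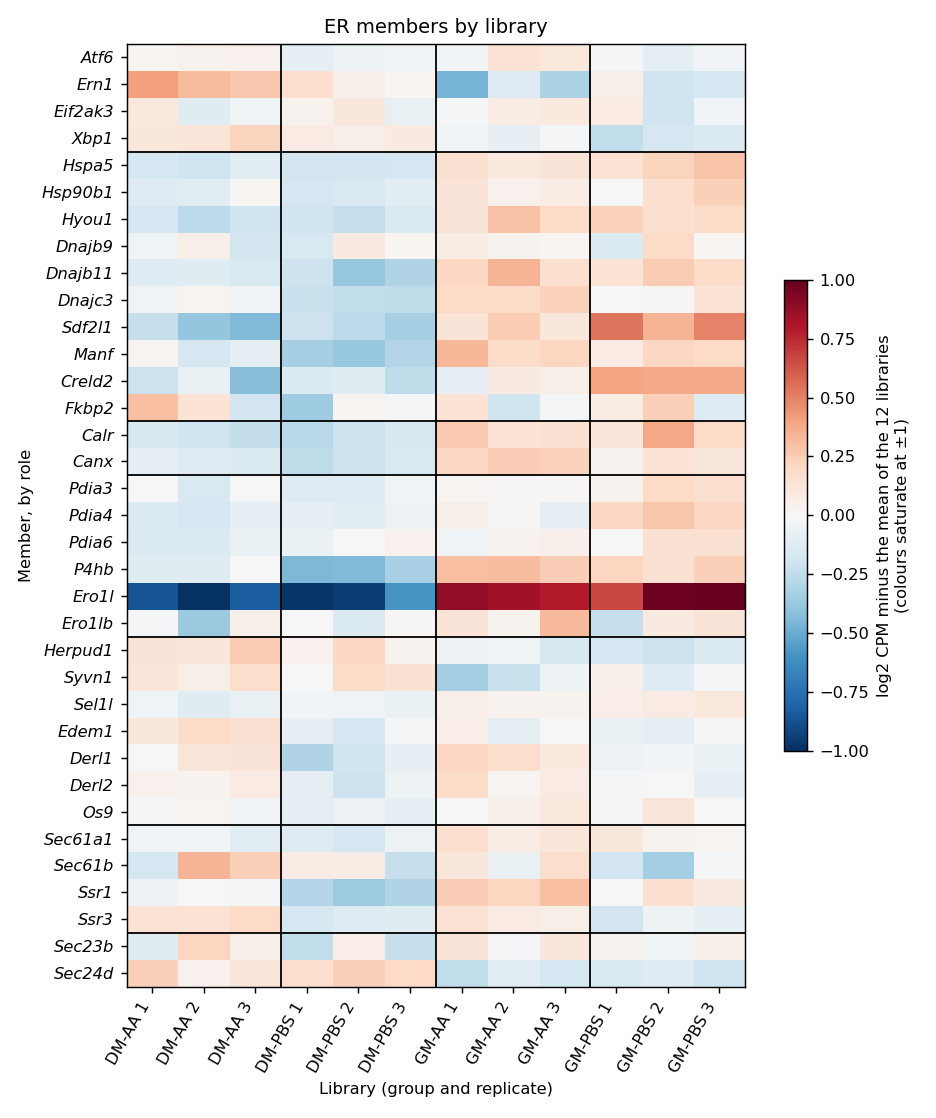
Level of the 35 tested members (rows, in the order of the text, with lines between roles) in the 12 libraries (columns), as log2 CPM minus the mean of the 12 libraries, red above and blue below. The folding genes from Hspa5 to Ero1l are mostly blue in the 6 DM libraries and red in the 6 GM libraries, Ero1l most of all, while Xbp1, Herpud1 and Sec24d run the other way.

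Among the sensors and their transcription factor, Xbp1 alone passed the test between media in both treatments, and it was higher in DM. Xbp1 stood at 159, 160.2 and 172 CPM in DM-AA, 155, 153 and 156 CPM in DM-PBS, 144, 139 and 145 CPM in GM-AA and 124, 131 and 133 CPM in GM-PBS. All 6 DM libraries lay above all 6 GM libraries, and within each medium the AA libraries lay above the PBS libraries. Xbp1 was higher in DM by 0.20 ± 0.048 with AA and by 0.26 ± 0.049 with PBS (adjusted p = 8.89e-04 and 2.59e-05), as log2 fold change ± SE with 3 libraries a group. With AA it stood at 0.080 ± 0.048 in DM (adjusted p = 0.230) and rose by 0.15 ± 0.049 in GM (adjusted p = 0.0299). The call in GM was lost without GM-AA 1 or 3, or GM-PBS 1 (adjusted p 0.0755 to 0.127), and in DESeq2 (adjusted p 0.0577).

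Ern1, the sensor that splices Xbp1, was the one sensor that AA moved past the test. Ern1 stood at 62.5, 58.7 and 56.8 CPM in DM-AA, 52.8, 48.7 and 47.7 CPM in DM-PBS, 34.2, 43.2 and 37.8 CPM in GM-AA and 49.2, 41.2 and 41.6 CPM in GM-PBS. The 3 DM-AA libraries lay above all others, and the GM-AA and GM-PBS libraries overlapped. Ern1 rose by 0.25 ± 0.075 with AA in DM (adjusted p = 0.0123), a call lost without DM-AA 1, or DM-PBS 3 (adjusted p 0.0518 to 0.0656). In GM it stood at -0.20 ± 0.082 (adjusted p = 0.0808), past the test without GM-AA 2 (adjusted p 0.0179). The AA effect in DM exceeded that in GM by 0.45 ± 0.11 (adjusted p = 0.0106), a call lost without GM-PBS 1 (adjusted p 0.0563). In DM against GM it was higher by 0.63 ± 0.078 with AA (adjusted p = 2.88e-08) and stood at 0.18 ± 0.078 with PBS (adjusted p = 0.0528), past the test under 9 of 20 alternatives.

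Atf6 and Eif2ak3 did not pass the test in any of the 5 comparisons. Atf6 stood at 198, 200.5 and 202 CPM in DM-AA, 183, 189 and 191 CPM in DM-PBS, 192, 216 and 211 CPM in GM-AA and 194, 183 and 192 CPM in GM-PBS. Eif2ak3 was at 38.3, 32.7 and 34.6 CPM in DM-AA, 36.4, 38.5 and 33.8 CPM in DM-PBS, 35.1, 37.4 and 38.2 CPM in GM-AA and 37.7, 31.0 and 34.9 CPM in GM-PBS. For Atf6 the DM-AA libraries lay above the DM-PBS libraries by a small margin and the GM groups overlapped, while for Eif2ak3 all 4 groups overlapped. The AA change of Atf6, which becomes a transcription factor when cleaved, was 0.094 ± 0.049 in DM and 0.12 ± 0.049 in GM (adjusted p = 0.161 and 0.0782), and without GM-AA 1 that in GM passed (adjusted p 0.0158). The AA change of Eif2ak3, the kinase PERK that slows translation, was -0.043 ± 0.081 in DM and 0.093 ± 0.081 in GM (adjusted p = 0.743 and 0.456). Its 95% intervals ran over -0.21 to 0.12 in DM and -0.071 to 0.26 in GM. Exons of a gene on the opposite strand cover 8.05% of Eif2ak3, and the strand of the reads is not given in the sources.

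Of the 10 genes for HSP70, HSP90 and their partners, 8 were lower in DM than in GM in each treatment and 0 were higher, where 26.3% of all genes were lower with AA and 27.4% with PBS. Hspa5 stood at 700.2, 690.1 and 735 CPM in DM-AA, 696, 694 and 703 CPM in DM-PBS, 880.0, 845 and 867 CPM in GM-AA and 875, 925 and 962 CPM in GM-PBS. Every DM library lay below every GM library. In DM, Hspa5, the HSP70 of the ER and a classic target of the unfolded protein response, fell by 0.29 ± 0.045 with AA and fell by 0.40 ± 0.044 with PBS (adjusted p = 1.72e-06 and 2.51e-09). Hsp90b1 showed 828, 840.3 and 916 CPM in DM-AA, 807, 815 and 836 CPM in DM-PBS, 989, 932 and 954 CPM in GM-AA and 908, 1011 and 1066 CPM in GM-PBS. Within each treatment its DM libraries lay below its GM libraries. In DM, Hsp90b1, the HSP90 of the ER, fell by 0.15 ± 0.051 with AA and fell by 0.28 ± 0.051 with PBS (adjusted p = 0.0113 and 1.79e-05), and the call with AA was lost without DM-AA 1 or 2 (adjusted p 0.0534 to 0.0671). Exons of a gene on the opposite strand cover 10.3% of Hsp90b1, and exons of other genes on its own strand cover 5.38%.

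AA did not move either of these chaperones past the test. Hspa5 stood at 0.022 ± 0.045 in DM and -0.091 ± 0.044 in GM (adjusted p = 0.759 and 0.146), with 95% intervals of -0.069 to 0.11 and -0.18 to -0.0013. Hsp90b1 stood at 0.072 ± 0.051 in DM and -0.054 ± 0.050 in GM (adjusted p = 0.320 and 0.490). With the trend over GC content and length removed, both were lower with AA in GM past the test, Hspa5 at -0.13 (adjusted p 0.0102) and Hsp90b1 at -0.13 (adjusted p 0.0227). Their GC content is 45.6% and 42.1%, below the median of 49.7% over tested genes. Across 12143 genes, which share their libraries, the AA changes were lower at higher GC content, with Spearman's rho of -0.27 in DM and -0.27 in GM.

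Creld2 and Sdf2l1, small ER proteins that rise steeply under ER stress, were the members that fell most with AA in GM. Creld2 stood at 22.1, 24.5 and 19.1 CPM in DM-AA, 23.4, 23.7 and 21.6 CPM in DM-PBS, 24.3, 27.3 and 26.7 CPM in GM-AA and 33.7, 33.3 and 33.5 CPM in GM-PBS. Sdf2l1 was at 29.0, 26.0 and 25.0 CPM in DM-AA, 29.4, 28.4 and 27.0 CPM in DM-PBS, 37.2, 40.5 and 36.7 CPM in GM-AA and 49.2, 43.1 and 47.9 CPM in GM-PBS. For both genes the 3 GM-AA libraries lay below the 3 GM-PBS libraries, while DM-AA and DM-PBS overlapped. In GM Creld2 fell by 0.36 ± 0.084 (adjusted p = 0.00209) and Sdf2l1, which works with BiP and its J-proteins, fell by 0.29 ± 0.073 (adjusted p = 0.00384). In DM Creld2 stood at -0.066 ± 0.094 (adjusted p = 0.652) and Sdf2l1 at -0.088 ± 0.085 (adjusted p = 0.490). The differences between the AA effects in the media, 0.29 ± 0.13 for Creld2 and 0.20 ± 0.11 for Sdf2l1, missed the threshold (adjusted p = 0.202 and 0.365). Their GC content is 54.8% and 56.7%, above the median of tested genes, and both falls in GM held with the GC and length trend removed.

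Both genes were lower in DM than in GM. Sdf2l1 fell by 0.52 ± 0.081 with AA and fell by 0.72 ± 0.077 with PBS (adjusted p = 1.76e-06 and 9.61e-10). Creld2 fell by 0.25 ± 0.091 with AA and fell by 0.55 ± 0.086 with PBS (adjusted p = 0.0201 and 2.14e-06). All 6 DM libraries of Sdf2l1 lay below its 6 GM libraries, whereas those of Creld2 overlapped between DM-AA and GM-AA. The Creld2 call with AA was lost without DM-AA 3, or GM-AA 2 or 3 (adjusted p 0.0583 to 0.168), and in DESeq2 (adjusted p 0.0733).

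Manf and Dnajc3 rose with AA in DM. Manf stood at 119, 104 and 109.8 CPM in DM-AA, 92.9, 89.9 and 95.3 CPM in DM-PBS, 147, 133 and 136 CPM in GM-AA and 124, 135 and 134 CPM in GM-PBS. The 3 DM-AA libraries lay above the 3 DM-PBS libraries and below the 6 GM libraries. Manf, a secreted protein that binds BiP, rose by 0.26 ± 0.057 with AA in DM (adjusted p = 8.92e-04) and stood at 0.081 ± 0.054 in GM (adjusted p = 0.308). In DM against GM, Manf fell by 0.32 ± 0.055 with AA and fell by 0.50 ± 0.056 with PBS (adjusted p = 7.65e-06 and 3.42e-09). Exons on the opposite strand cover 8.85% of Manf.

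Dnajc3, a J-protein that assists BiP, averaged 102 ± 2.89 CPM in DM-AA, 87.3 ± 0.985 CPM in DM-PBS, 119 ± 1.76 CPM in GM-AA and 107 ± 5.50 CPM in GM-PBS (SD, n = 3 each). It rose with AA by 0.23 ± 0.052 in DM, with an adjusted p of 0.00126, and by 0.15 ± 0.050 in GM, with one of 0.0249. The call in GM was lost without GM-AA 3, or GM-PBS 1 or 2 (adjusted p 0.0805 to 0.0929), in DESeq2 (adjusted p 0.0682) and under removal of the GC and length trend (adjusted p 0.135). Relative to GM, Dnajc3 fell by 0.22 ± 0.050 with AA and fell by 0.29 ± 0.052 with PBS (adjusted p = 3.71e-04 and 1.19e-05). Another J-protein, Dnajb11, fell by 0.37 ± 0.058 with AA and fell by 0.48 ± 0.059 with PBS (adjusted p = 1.77e-06 and 1.71e-08). With AA in DM it stood at 0.16 ± 0.061 (adjusted p = 0.0518), past the test under 12 of 20 alternatives.

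The remaining partners showed no AA change past the test. Hyou1 stood at 154, 145 and 152 CPM in DM-AA, 152, 148 and 157 CPM in DM-PBS, 190.1, 213 and 198 CPM in GM-AA and 204, 195 and 198 CPM in GM-PBS. All 6 DM libraries lay below all 6 GM libraries, and within each medium AA and PBS overlapped. In DM, Hyou1, an HSP70 relative that recharges BiP, fell by 0.41 ± 0.050 with AA and fell by 0.38 ± 0.050 with PBS (adjusted p = 1.43e-08 and 5.46e-08). Its AA change was -0.017 ± 0.051 in DM and 0.012 ± 0.049 in GM (adjusted p = 0.843 and 0.897). Dnajb9 was at 26.3, 28.2 and 23.8 CPM in DM-AA, 24.3, 28.7 and 27.4 CPM in DM-PBS, 28.5, 27.8 and 27.4 CPM in GM-AA and 24.6, 30.9 and 27.4 CPM in GM-PBS. All 4 groups of Dnajb9 overlapped, and this J-protein, which restrains IRE1 through BiP, passed in none of the 4 comparisons of groups (adjusted p = 0.390 to 0.923). Fkbp2, a prolyl isomerase of the ER, stood at 0.22 ± 0.12 with AA in DM (adjusted p = 0.176), and passed under removal of the GC and length trend (adjusted p 0.0445) and without DM-AA 3 (adjusted p 0.0390).

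**Figure D3:**
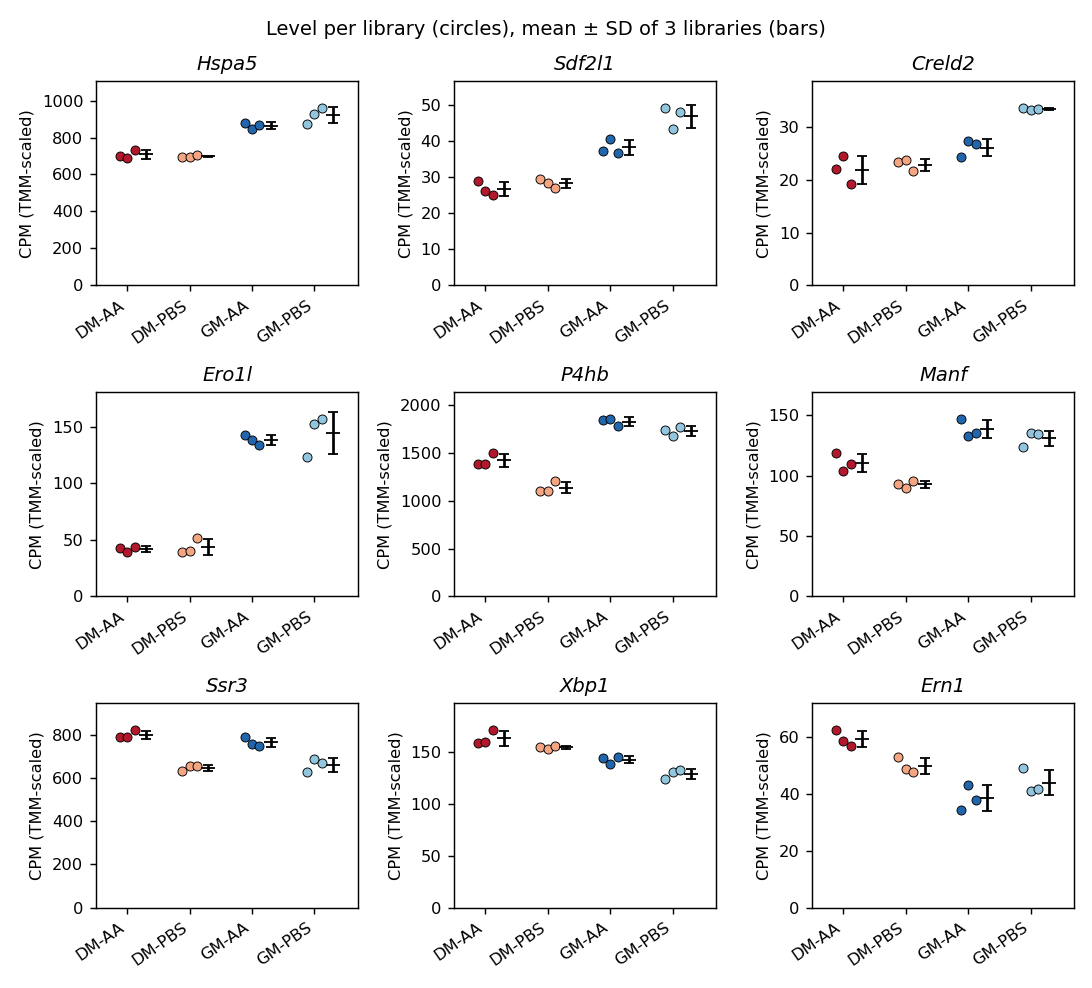
CPM per library (circles, replicates 1 to 3 from left to right) and mean ± SD of 3 libraries (bars) for 9 members in DM-AA, DM-PBS, GM-AA and GM-PBS, with axes from 0. Ero1l separates the media most, Creld2 and Sdf2l1 are lower in GM-AA than in GM-PBS, and P4hb, Manf, Ssr3 and Ern1 are higher in DM-AA than in DM-PBS.

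The lectin chaperones Calr and Canx, which hold glycoproteins while they fold, were lower in DM. Calr averaged 946 ± 27.3 CPM in DM-AA, 935 ± 38.7 CPM in DM-PBS, 1236 ± 59.1 CPM in GM-AA and 1281 ± 121 CPM in GM-PBS (SD, n = 3 each). It fell by 0.39 ± 0.053 with AA and fell by 0.45 ± 0.053 with PBS (adjusted p = 1.82e-07 and 6.19e-09), and its AA change was 0.017 ± 0.053 in DM and -0.052 ± 0.053 in GM (adjusted p = 0.852 and 0.532). Calr has 1 annotated pseudogene that bears its name, so that its counts are uncertain to the extent that reads were shared. Pseudogenes under other names were not looked for, in Calr or in any other member. Canx fell by 0.35 ± 0.044 with AA and fell by 0.30 ± 0.044 with PBS (adjusted p = 3.43e-08 and 4.64e-07) in DM. With AA it stood at 0.085 ± 0.044 in DM (adjusted p = 0.155) and rose by 0.13 ± 0.043 in GM (adjusted p = 0.0296). The call in GM was lost without GM-AA 2 or 3, or GM-PBS 1 or 3 (adjusted p 0.0510 to 0.130), and under removal of the GC and length trend (adjusted p 0.262).

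Among the disulfide isomerases and oxidases, Ero1l had the largest difference between media of the 35 members. Ero1l (now Ero1a) encodes the oxidase that passes disulfide bonds to the isomerases, and it is also known to respond to hypoxia. Its values per library are given because of that difference, after they were seen. Ero1l stood at 42.5, 38.9 and 43.7 CPM in DM-AA, 39.5, 40.0 and 51.5 CPM in DM-PBS, 143, 138 and 134 CPM in GM-AA and 123, 153 and 157 CPM in GM-PBS. Every DM library was below every GM library, and within each medium AA and PBS overlapped. In DM, Ero1l fell by 1.73 ± 0.081 with AA and fell by 1.73 ± 0.080 with PBS (adjusted p = 1.22e-18 and 6.97e-19), and stood with PBS at 30.1% of its GM level. Its AA change was -0.059 ± 0.095 in DM and -0.061 ± 0.069 in GM (adjusted p = 0.700 and 0.587). Its paralogue Ero1lb, with 48 to 81 reads in each library, passed in none of the comparisons.

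P4hb, the protein disulfide isomerase itself, was the one isomerase that rose with AA in DM. P4hb stood at 1383, 1383 and 1497 CPM in DM-AA, 1103, 1104 and 1202 CPM in DM-PBS, 1848, 1856 and 1779 CPM in GM-AA and 1744, 1672 and 1776 CPM in GM-PBS. The DM-AA libraries lay above the DM-PBS libraries and below the GM libraries. P4hb rose by 0.32 ± 0.046 with AA in DM (adjusted p = 1.64e-06) and stood at 0.079 ± 0.046 in GM (adjusted p = 0.237). Under removal of the GC and length trend the value in GM was 0.12 and passed (adjusted p 0.0308). The AA effect in DM exceeded that in GM by 0.24 ± 0.065 (adjusted p = 0.0195), a call lost without DM-AA 3, or DM-PBS 1 or 2, or GM-AA 3, or GM-PBS 3 (adjusted p 0.0555 to 0.0811). Relative to GM, P4hb fell by 0.36 ± 0.046 with AA and fell by 0.61 ± 0.046 with PBS (adjusted p = 3.78e-08 and 3.15e-13).

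Pdia4 was the isomerase that fell with AA in GM. Pdia4 stood at 219, 214 and 227 CPM in DM-AA, 226, 223 and 231 CPM in DM-PBS, 251, 243 and 228 CPM in GM-AA and 278, 293 and 278 CPM in GM-PBS. The GM-AA libraries lay below the GM-PBS libraries, and DM-AA and DM-PBS overlapped. Pdia4 stood at -0.044 ± 0.048 with AA in DM (adjusted p = 0.541) and fell by 0.23 ± 0.047 in GM (adjusted p = 4.13e-04). The difference between its AA effects in the media, 0.19, missed the threshold (adjusted p = 0.101). It passed under removal of the GC and length trend (adjusted p 0.0445). Pdia3, the isomerase that works with Calr and Canx, was at -0.11 ± 0.049 in GM (adjusted p = 0.0941), and passed under removal of the GC and length trend (adjusted p 0.0167) and without GM-PBS 1 (adjusted p 0.0351).

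Between the media, Pdia4 fell by 0.13 ± 0.047 with AA and fell by 0.32 ± 0.047 with PBS (adjusted p = 0.0212 and 6.33e-07), and the call with AA was lost without DM-AA 1 or 2, or GM-AA 1 or 2 (adjusted p 0.0520 to 0.108). Pdia3 stood at -0.069 ± 0.049 with AA (adjusted p = 0.243) and fell by 0.23 ± 0.049 with PBS (adjusted p = 1.37e-04). Pdia6, another isomerase, fell by 0.14 ± 0.049 with AA and fell by 0.12 ± 0.048 with PBS (adjusted p = 0.0191 and 0.0399). With AA the Pdia6 call was lost without DM-AA 1 or 2, or GM-AA 2 or 3 (adjusted p 0.0542 to 0.0667). With PBS it was lost without DM-PBS 1 or 2, or GM-PBS 2 or 3 (adjusted p 0.0753 to 0.185), and under removal of the GC and length trend (adjusted p 0.0549).

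Of the 7 tested genes of ER-associated degradation, 3 were higher and 1 was lower in DM with AA (57.1% called, against 52.2% of all genes), and 1 was higher and 2 were lower with PBS (42.9%, against 54.4%), shares near those of all genes. Herpud1 stood at 51.3, 51.1 and 55.9 CPM in DM-AA, 48.5, 54.1 and 48.0 CPM in DM-PBS, 45.3, 45.7 and 42.0 CPM in GM-AA and 41.5, 40.5 and 42.4 CPM in GM-PBS. All 6 DM libraries lay above all 6 GM libraries. Herpud1, which helps assemble the ubiquitin ligase complex, was higher in DM by 0.25 ± 0.067 with AA and by 0.27 ± 0.069 with PBS (adjusted p = 0.00221 and 0.00105). Its AA change was 0.074 ± 0.066 in DM and 0.10 ± 0.070 in GM (adjusted p = 0.452 and 0.354). Syvn1, the ligase of that complex, was higher in DM by 0.32 ± 0.070 with AA (adjusted p = 2.42e-04) and stood at 0.14 ± 0.069 with PBS (adjusted p = 0.0826), past the test under 3 of 20 alternatives. For AA against PBS in GM, Syvn1 stood at -0.17 (adjusted p = 0.0865). It passed there without GM-AA 3 and without GM-PBS 2 (adjusted p 0.0202 and 0.0491).

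Derl1, a membrane protein through which substrates leave the ER, rose with AA in both media. Derl1 stood at 165, 180.4 and 181 CPM in DM-AA, 134, 144 and 156 CPM in DM-PBS, 191, 187 and 178 CPM in GM-AA and 159, 163 and 158 CPM in GM-PBS. In each medium the 3 AA libraries lay above the 3 PBS libraries. Derl1 rose with AA by 0.28 ± 0.054 in DM, with an adjusted p of 1.26e-04, and by 0.21 ± 0.053 in GM, with one of 0.00365. Edem1, which marks glycoproteins for degradation, averaged 126 ± 3.46 CPM in DM-AA, 107 ± 5.72 CPM in DM-PBS, 113 ± 6.38 CPM in GM-AA and 109.5 ± 4.36 CPM in GM-PBS (SD, n = 3 each). It rose by 0.24 ± 0.053 with AA in DM (adjusted p = 8.39e-04) and stood at 0.045 ± 0.054 in GM (adjusted p = 0.608). Derl2, a relative of Derl1, rose by 0.17 ± 0.062 in DM (adjusted p = 0.0446). This call was lost without DM-AA 1, 2 or 3, or DM-PBS 1 or 2 (adjusted p 0.0712 to 0.197), in DESeq2 (adjusted p 0.114), with no filter on low counts (adjusted p 0.0578) and under removal of the GC and length trend (adjusted p 0.252).

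Between media, Derl1 stood at -0.077 ± 0.052 with AA (adjusted p = 0.223) and fell by 0.15 ± 0.054 with PBS (adjusted p = 0.0208), a call lost without DM-PBS 1 or 2, or GM-PBS 2 (adjusted p 0.0541 to 0.199). Sel1l, the partner of Syvn1, fell by 0.12 ± 0.045 with AA and fell by 0.13 ± 0.045 with PBS (adjusted p = 0.0265 and 0.0159). Its call with AA was lost without DM-AA 2 or 3, or GM-AA 1 (adjusted p 0.0505 to 0.119), with no filter on low counts (adjusted p 0.0507) and under removal of the GC and length trend with the replicate block (adjusted p 0.0563), and its call with PBS was lost without GM-PBS 3 (adjusted p 0.0547). Edem1 was higher in DM with AA by 0.16 ± 0.053 (adjusted p = 0.0121), a call lost without DM-AA 2, or GM-AA 2 (adjusted p 0.0556 to 0.0934). With the authors' RPKM divisor as library size, the calls of Pdia4, Pdia6 and Sel1l with AA and of Derl1, Pdia6 and Sel1l with PBS were lost. Os9, a lectin that delivers glycoproteins to the ligase, was at -0.11 ± 0.049 in DM with PBS (adjusted p = 0.0511), past the test under 7 of 20 alternatives. With AA it stood at 0.075 ± 0.049 in DM (adjusted p = 0.275), and at 0.16 past the test under removal of the GC and length trend (adjusted p 0.0126).

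In the translocon group, Ssr1 and Ssr3, subunits of the translocon-associated protein complex, rose with AA in both media. Ssr3 stood at 795, 792 and 825 CPM in DM-AA, 634, 658 and 659 CPM in DM-PBS, 793, 761 and 749 CPM in GM-AA and 629, 692 and 669.6 CPM in GM-PBS. Ssr1 was at 343, 356 and 353 CPM in DM-AA, 290.0, 276 and 288 CPM in DM-PBS, 422, 412 and 437 CPM in GM-AA and 354, 397 and 378 CPM in GM-PBS. The AA libraries lay above the PBS libraries of their medium for both genes. Ssr3 rose with AA by 0.31 ± 0.045 in DM, with an adjusted p of 2.64e-06, and by 0.21 ± 0.045 in GM, with one of 8.06e-04. Ssr1 rose with AA by 0.30 ± 0.047 in DM, with an adjusted p of 9.29e-06, and by 0.17 ± 0.047 in GM, with one of 0.00840, and the call in GM was lost without GM-PBS 1 (adjusted p 0.0667). Their GC content is 40.8% for Ssr3 and 44.6% for Ssr1, below the median of tested genes, and all 4 calls held with the GC and length trend removed. In DM against GM, Ssr1 fell by 0.27 ± 0.047 with AA and fell by 0.40 ± 0.047 with PBS (adjusted p = 8.45e-06 and 7.88e-09), whereas Ssr3 stood at 0.067 ± 0.045 with AA and -0.029 ± 0.045 with PBS (adjusted p = 0.216 and 0.616).

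The channel subunits did not pass the test for AA. Sec61a1, the pore itself, fell by 0.18 ± 0.046 with AA and fell by 0.18 ± 0.047 with PBS (adjusted p = 0.00136 and 0.00174) in DM, and its AA change was 0.061 ± 0.047 in DM and 0.066 ± 0.046 in GM (adjusted p = 0.373 and 0.341). Exons on the opposite strand cover 8.16% of Sec61a1. Sec61b, a small subunit with 207 to 333 reads in each library, was at 0.25 ± 0.11 with AA in GM (adjusted p = 0.0891). It passed under 6 of 20 alternatives, among them removal of the GC and length trend (adjusted p 0.0222). With AA in DM, Sec61b stood at 0.16 (adjusted p = 0.260), past the test without DM-AA 1 (adjusted p 0.0245).

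Of the 2 COPII coat genes, Sec24d, which selects cargo, averaged 118 ± 8.07 CPM in DM-AA, 123 ± 3.16 CPM in DM-PBS, 95.2 ± 4.73 CPM in GM-AA and 96.2 ± 2.27 CPM in GM-PBS (SD, n = 3 each). It was higher in DM by 0.31 ± 0.054 with AA and by 0.36 ± 0.054 with PBS (adjusted p = 1.27e-05 and 9.03e-07), and all 6 DM libraries lay above all 6 GM libraries. Its AA change was -0.066 ± 0.053 in DM and -0.015 ± 0.055 in GM (adjusted p = 0.394 and 0.881). Sec23b, of the inner coat, passed in none of the comparisons. With AA in DM it stood at 0.19 ± 0.085 (adjusted p = 0.0958), past the test without DM-AA 1 and without DM-PBS 2 (adjusted p 0.0249 and 0.0149). In DM against GM with PBS it stood at -0.15 (adjusted p = 0.134), past the test without DM-PBS 2 (adjusted p 0.0174).

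**Figure D4:**
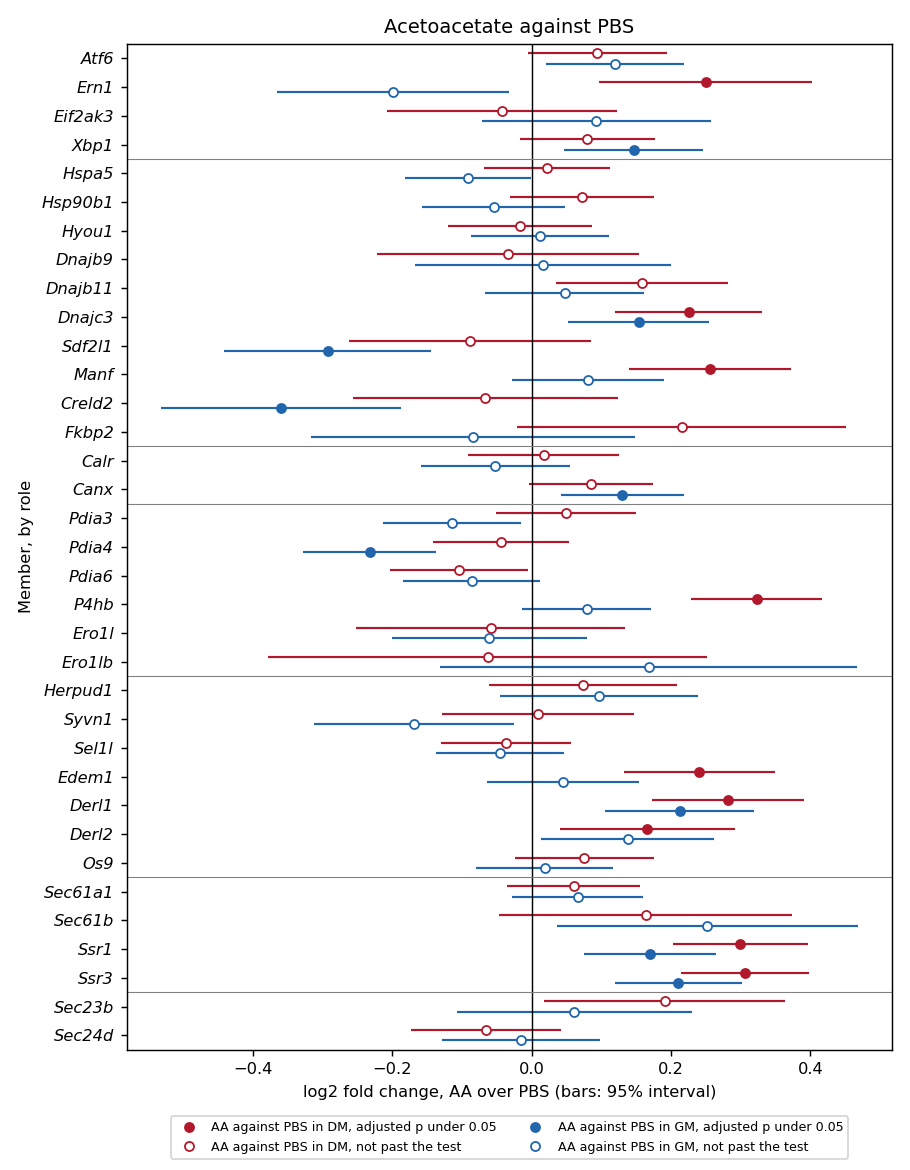
Log2 fold change of AA over PBS for the 35 tested members, in DM (red) and in GM (blue), with 95% intervals; filled circles are past the test. All 9 filled DM circles are to the right of 0, and the filled GM circles lie on both sides, with Creld2, Sdf2l1 and Pdia4 on the left.

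**Figure D5:**
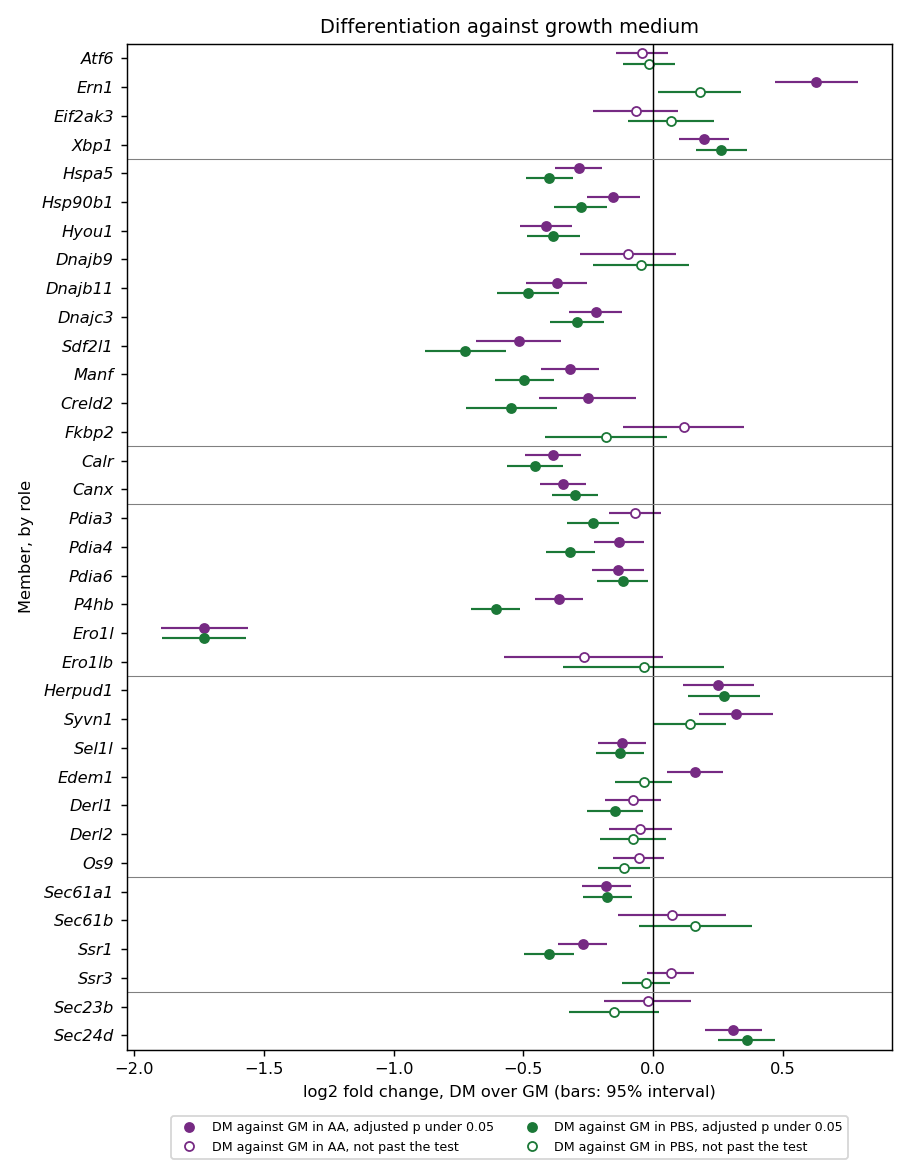
Log2 fold change of DM over GM for the same members, with AA (purple) and with PBS (green), with 95% intervals; filled circles are past the test. Ero1l is farthest to the left at -1.73 in both treatments, most chaperones and isomerases lie left of 0, and Xbp1, Herpud1 and Sec24d lie to the right. The 2 comparisons share no library.

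Set beside the promoters, 7 of the 9 tested members with the ER stress element were lower in DM with AA and 1 was higher, with a median log2 fold change of -0.25. Of the 21 tested members whose window lacked its exact letters, 7 were lower and 5 were higher, with a median of -0.056. Over all genes, 26.3% were lower and 25.9% higher in DM with AA. These 21 include Herpud1 and Dnajb11, with element II, and Sec24d, with TGACGTGG. Herpud1 and Sec24d are among those higher in DM in both treatments. With PBS, 7 with the element were lower and 0 higher (median -0.29), and 8 without it were lower and 3 higher (median -0.11). Over all genes, 27.4% were then lower and 27.0% higher. For AA against PBS, 1 member with the element rose and 0 fell in DM, and 6 without it rose and 0 fell, where 26.4% of all genes were called. In GM 2 with the element rose and 1 fell, and 3 without it rose and 2 fell, where 20.7% of all genes were called. Members with no window are in neither group, among them Manf, which rose with AA in DM, and Derl1, which rose in both media. Ero1lb and Syvn1 have the element and were not lower in DM past the test in either treatment, and the window of Ero1l, the member that fell most, does not hold its exact letters. The groups of members with and without the element were not tested against each other.

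A further 68 ER genes outside the list, 66 of them tested, were read in the same way. With AA, 15 rose and 3 fell in DM (27.3%, against 26.4% of all genes), and 9 rose and 3 fell in GM (18.2%, against 20.7%). Without DM-AA 2 or DM-PBS 1, those that fell in DM numbered 1. Without GM-AA 2 or GM-PBS 2, those that rose in GM numbered 5, and without GM-AA 1 those that fell numbered 5. In DM against GM, 18 were higher and 18 lower with AA (54.5%, against 52.2%), and 12 were higher and 23 lower with PBS (53.0%, against 54.4%), again near the shares of all genes. Among them, of 10 genes of glycosylation and the lectin cycle, 1 was higher and 7 were lower in DM with AA, and 0 were higher and 7 lower with PBS, where 26.3% and 27.4% of all genes were lower. Of 11 degradation genes, 2 were higher and 0 lower in each treatment, where 25.9% of all genes were higher with AA and 27.0% with PBS.

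The genes named here had the smallest p among them in the AA comparisons. Spcs2, a subunit of the signal peptidase that trims imported proteins, rose with AA by 0.39 ± 0.057 in DM, with an adjusted p of 2.37e-06, and by 0.27 ± 0.056 in GM, with one of 4.69e-04. Ssr2, another subunit of the complex of Ssr1 and Ssr3, rose with AA by 0.29 ± 0.052 in DM, with an adjusted p of 4.95e-05, and by 0.20 ± 0.051 in GM, with one of 0.00403. Wfs1, an ER membrane protein tied to calcium and stress, rose by 0.43 ± 0.054 in DM (adjusted p = 1.34e-07) and stood at 0.14 ± 0.053 in GM (adjusted p = 0.0560), past the test there under 4 of 20 alternatives. Its AA effect in DM exceeded that in GM by 0.29 ± 0.075 (adjusted p = 0.0152), a call lost without DM-AA 2, or GM-PBS 1 (adjusted p 0.0612 to 0.0616). Creb3l1, a membrane-bound transcription factor of the same type as ATF6, was at -0.0059 ± 0.045 in DM (adjusted p = 0.943) and fell by 0.33 ± 0.045 in GM (adjusted p = 1.10e-06), a difference between the AA effects of 0.33 ± 0.063 (adjusted p = 0.00108). Mbtps1, the protease that makes the first cut in ATF6, fell by 0.15 ± 0.046 in DM (adjusted p = 0.0134) and fell by 0.19 ± 0.047 in GM (adjusted p = 0.00315). The Mbtps1 call in DM was lost without DM-PBS 1 (adjusted p 0.0540).

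The arm of the integrated stress response includes PERK and ATF4, and the counts do not show whether PERK acted on its genes. In this arm, the transcription factor Atf4 rose with AA by 0.28 ± 0.049 in DM, with an adjusted p of 5.82e-05, and by 0.40 ± 0.049 in GM, with one of 2.08e-07. Its pro-apoptotic target Ddit3 (CHOP) was at -0.23 ± 0.11 in DM and 0.14 ± 0.088 in GM (adjusted p = 0.111 and 0.296), and the value in DM passed under removal of the GC and length trend (adjusted p 0.0384). With AA in DM the targets Trib3 and Chac1 stood at 0.0034 ± 0.18 and -0.28 ± 0.16 (adjusted p = 0.993 and 0.201), and in GM they rose by 0.39 ± 0.12 and by 0.34 ± 0.12 (adjusted p = 0.0210 and 0.0463). The Trib3 call was lost without GM-AA 1 or 2, or GM-PBS 1 (adjusted p 0.0694 to 0.138), the Chac1 call without DM-PBS 2, or GM-AA 2 or 3, or GM-PBS 1, 2 or 3 (adjusted p 0.0503 to 0.198), and both in DESeq2 (adjusted p 0.0968 and 0.171). Ppp1r15a, which reverses the action of PERK, was at 0.068 ± 0.079 in DM and -0.064 ± 0.074 in GM (adjusted p = 0.580 and 0.593). Asns, an amino acid synthesis gene named after its values were seen, stood at 0.20 ± 0.10 in DM (adjusted p = 0.141) and rose by 0.25 ± 0.071 in GM (adjusted p = 0.0112). The GM-AA and GM-PBS libraries of Asns overlapped, and its call was not followed under the alternatives. Of the 9 genes of this arm, 1 rose and 0 fell with AA in DM (26.4% of all genes were called), where Sesn2 and Nupr1 stood at -0.23 ± 0.10 and -0.15 ± 0.072 (adjusted p = 0.0909 and 0.124), and 4 rose and 0 fell in GM (20.7% of all genes). In DM against GM, 7 were lower and 1 was higher in each treatment, where 26.3% of all genes were lower with AA and 27.4% with PBS.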

How the data were processed

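The submitters' processing notes name BWA 0.5.9-r16 and the build mm9. Strand, annotation, the treatment of multiple matches and the way of counting are nowhere stated in the labels or headers. The authors deposited raw read counts and RPKM values per gene with the gene's exon length, per the file headers, and every column of values was matched to a sample (0 unmatched). The deposited RPKM values served for levels between genes and as an alternative library size.

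Counts were filtered with filterByExpr by group, scaled by TMM and fitted in 1 model of 4 group means over the 12 libraries with edgeR 4.0.16 (glmQLFit and glmQLFTest, two-sided; R 4.3.3), with Benjamini-Hochberg adjustment across the 12230 genes tested. SE is the absolute log2 fold change over the square root of F. The common biological coefficient of variation was 4.08%. Libraries of a group differed beyond counting noise (chi-square per degree of freedom 1.46 to 2.94). The edgeR fit was tested on simulated data. A library's GC and length trend was removed, as an alternative, by lowess on GC content from GENCODE M21 transcripts. Other alternatives were DESeq2 1.42.0, other scalings, no filter, a replicate block and leaving out each library. The members and lists were chosen with earlier results of these data known. Genes with values per library were fixed by name, plus the 4 further members with the smallest p in each AA comparison. Overlapping exons, and pseudogenes named after a member, are from GENCODE M21 on GRCm38.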

Additional observations from a re-analysis of the deposited data

Results flagged for a closer look

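Ern1 and P4hb were the members whose AA effect differed between the media by the test of the difference itself. For Ern1 the effect in DM exceeded that in GM by 0.45 ± 0.11 on the log2 scale (adjusted p = 0.0106, edgeR quasi-likelihood test), with 62.5, 58.7 and 56.8 CPM in DM-AA, 52.8, 48.7 and 47.7 CPM in DM-PBS, 34.2, 43.2 and 37.8 CPM in GM-AA and 49.2, 41.2 and 41.6 CPM in GM-PBS. It was lost without GM-PBS 1 (adjusted p 0.0563). For P4hb the difference was 0.24 ± 0.065 (adjusted p = 0.0195), from 0.32 ± 0.046 in DM and 0.079 ± 0.046 in GM, and it was lost without DM-AA 3, or DM-PBS 1 or 2, or GM-AA 3, or GM-PBS 3 (adjusted p 0.0555 to 0.0811). A call rate of 5.24% over all genes stands beside these 2 of 35 members.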

How the results depend on the processing

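Of 65 calls of members over the 5 comparisons, 48 held under every alternative tried and 17 were lost under at least 1; of 110 pairs of member and comparison without a call, 18 gained one under at least 1. No called member changed sign, while 84 refitted values without a call, counted over members, comparisons and alternatives, did. With the GC and length trend removed, 6 members fell with AA in GM, without the replicate block and with it, against 3; with the RPKM divisor as library size, 5 members were higher in DM with PBS, against 3. The cause of these shifts was not tested. Leaving out 1 library, the members that rose with AA in GM numbered 2 to 7, those higher in DM with PBS numbered 3 to 5, and those called (all higher) for the difference of AA effects numbered 1 to 2. Members that fell with AA in DM numbered 0 under every alternative, DESeq2 among them. Replicates that share a number in the labels did not deviate together (correlation -0.068 to 0.082 across genes). With the replicate block the members called numbered 9 in DM and 9 in GM for AA, as without it, and no call of a member changed; that of Chac1 in GM was lost (adjusted p = 0.0518). Genes with few reads, such as Ero1lb and Sec61b, have wide intervals, and depth limits what could be seen for them.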
